A study of Bos taurus with 11 samples.

Results

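Orphan CpG islands are stretches of CpG-rich DNA that lie away from annotated gene starts. In mammals, unmethylated CpG islands attract CXXC-domain proteins that bring H3K4 methyltransferases, so an island can carry H3K4me3 without an annotated promoter, and some orphan islands act as unannotated or tissue-specific starts. In cells where its gene is silent, a CpG island is often held by Polycomb repressive complex 2, which writes H3K27me3, and an island with both H3K4me3 and H3K27me3 is called bivalent. H3K27ac is the mark of active promoters and enhancers, H3K4me1 marks enhancers and the flanks of promoters, and CTCF is the zinc finger protein of chromatin boundaries and loops.

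The intervals described here were selected on the H3K4me3 calls of control rumen epithelial primary cells (REPC): each held at least 1 CpG island and overlapped 0 promoters in the deposited annotation. The rule took 3812 of the 27292 control H3K4me3 intervals and of the 371758 intervals in all 10 ChIP libraries. They are called orphan-island intervals below. Both groups were cultures of rumen cells from 1 animal, a male Holstein calf aged 2 weeks on a milk replacer diet. The butyrate group was treated with 5 mM butyrate, a fatty acid of rumen fermentation and an inhibitor of histone deacetylases, for 24 h, and the control group was not treated. Each group had 1 library for each of H3K4me3, H3K27ac, H3K4me1, H3K27me3 and CTCF, and 1 input library served both. No library had a replicate, so no difference between butyrate and control could be tested, and all comparisons below are descriptions of these libraries.

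In the deposited values a promoter reached 7.5 kb before to 2.5 kb after a gene start and a gene was listed up to 10 kb outside its ends, a reading that matched the promoter count of 98.6% of the 25061 control H3K4me3 intervals with a listed gene. The libraries held 26824 to 54071 intervals each, and the butyrate H3K4me3 library had 33804. Signal values are tag densities whose scaling between libraries is not given in the sources used here. As a check of the cell label, control H3K4me3 lay within 2 kb of the start of 8 of 15 stratified epithelium markers, without TP63, CDH1, KRT14 and KRT15 among them. It also lay there for 7 of 9 fibroblast markers, 1 of 4 smooth muscle markers, 1 of 6 endothelial markers and 0 of 6 immune markers. The part of other cell types in the results below was not tested.

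Orphan-island intervals were shorter and lower in signal than the CpG-island intervals at promoters. Their median length was 756 bp (quartiles 391 and 1412 bp, range 177 to 7474 bp), against 1623 bp for the 14038 island intervals with a promoter. Their median average signal in control was 47.5 (quartiles 31.2 and 75.2), against 81.4 at island promoters. The 5971 promoter intervals without an island and the 3471 intervals with neither feature were lower still, with medians of 26.2 and 26.5. Together the orphan-island intervals covered 3.94 Mb. Most of them, 3695, held a single island, 109 held 2 and 8 held 3.

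By position, 1803 orphan-island intervals (47.3%) lay in a gene, 512 lay downstream of one, 112 upstream and 61 between genes, while 1324 (34.7%) had no listed gene. Among the 2488 with a gene, the summit lay at a median distance of 13646 bp from the nearest listed start. Every autosome and chromosome X held some, and they made up between 17.5% of the island intervals on chromosome 6 and 29.2% on chromosome 27. Chromosome X held 133. Within 1 kb of another control H3K4me3 interval lay 1945 (51.0%), against 57.9% of the island promoters and 62.5% of all control H3K4me3 intervals. Joining orphan-island intervals up to 1 kb apart gave 3060 sites, of which 2403 held a single interval. Neighbors within a site share an island or a marked stretch and are not independent. Only 159 (4.17%) lay within 1 kb of a control H3K4me3 interval that overlapped a promoter. BCOR, the BCL6 corepressor gene on chromosome X, was listed by 15 of them, more than any other gene.

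The boundary of the rule was set by the promoter window. On its orphan side, the interval at RP2 on chromosome X lay 5 bp outside the promoter window and that at SCRT1 on chromosome 14 lay 9 bp outside it. Their control H3K4me3 signals were 84.4 and 37.7. On the promoter side, the intervals at RCC2 and PSMD1 on chromosome 2 reached 4 and 5 bp into a window and had control signals of 51.2 and 98.5.

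After butyrate, 97.95% of the orphan-island intervals (3734 of 3812; exact 95% interval 97.5 to 98.4%, counting error only) overlapped a butyrate H3K4me3 interval, against 91.7% of all control H3K4me3 intervals. The share was 99.1% at island promoters, 76.5% at promoters without an island and 81.1% in the class with neither. The 2 CpG-island classes thus had H3K4me3 in both libraries more often than the 2 classes without islands. Read from the other side, 64.7% of the 5460 butyrate intervals that met the same rule (3534) overlapped a control interval, against 70.6% of all butyrate intervals and 86.5% of the butyrate island intervals with a promoter. On this side the orphan-island share was below that of all intervals.

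The H3K4me3 signal of the shared orphan-island intervals was on the whole higher after butyrate. The median log2 ratio of average signal, butyrate over control, was 0.27 over the 3734, with 2744 above 0, against 0.11 over all 25029 shared control intervals, 0.02 at island promoters, 0.22 at promoters without an island and 0.25 in the class with neither. At least 2-fold higher were 465 (12.5%), against a background of 13.5% of all shared intervals, and at least 2-fold lower was 1, against 0.108%. These ratios use the H3K4me3 control values that chose the intervals, so they are given as a description.

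A ratio can compare unlike stretches where a short control piece lies inside a wide butyrate interval. Of the 3734 shared orphan-island intervals, 673 lay in a joined region with another control interval, against 5778 of all 25029 shared control intervals. Over 2499 that matched a single butyrate interval, with at least 50% of the longer of the pair covered, the median log2 ratio was 0.20 and 122 (4.88%) were at least 2-fold higher, against 2.69% of the 15705 control intervals matched in this way. When overlapping intervals of both libraries were joined into regions, 319 of 3519 regions that held an orphan-island interval (9.07%) were at least 2-fold higher, against 5.2% of all 21899 regions. Only 1 region was lower, and the median was 0.25. The share at least 2-fold higher was thus below the background over all shared intervals and above it over single matches and over regions.

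The ratio differed with the control level. That level is also its denominator, so a lower ratio at higher control signal can arise from sorting by that level alone. The fall across strata is given as a description. When orphan-island intervals were split by the quartiles of their control signal, those of the lowest stratum, up to 31.2, had a median log2 ratio of 0.78 and island promoters of the same signal had 1.00. In the next stratum, up to 47.5, the medians were 0.45 and 0.56. Above that, up to 75.2, they were 0.18 and 0.13, and in the highest stratum −0.01 and −0.09. At like control signal the orphan-island intervals thus had lower ratios than island promoters in the 2 lower strata and higher ones in the 2 upper strata.

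The strongest orphan-island intervals differed by less than 2-fold in H3K4me3 between the libraries. NADK, the kinase that makes NADP from NAD, had the highest H3K4me3 signal among intervals with a named gene (chr16:52191208-52193338), at 182 after butyrate and 198 in control. FOXK1, a forkhead factor, had 186 after butyrate and 171 in control, and CRIP2, a LIM-domain protein, had 209 and 166, a log2 ratio of 0.34. The 10 intervals of highest control signal with a named gene also included PRR5L and RPTOR, of the mTOR complexes, ROBO1, a Slit receptor, NFIA, a nuclear factor, MACROD1, KCTD7 and DLC1, a GTPase-activating protein. Their log2 ratios lay between −0.51 at DLC1 and 0.34 at CRIP2, and 7 of the 10 were below 0. The interval with the highest signal of all had no listed gene (chr28:1894620-1894836). It had 242 after butyrate and 238 in control, and at its 216 bp the control libraries of H3K4me1 and H3K27me3 also gave high values of 259 and 117, with no overlapping interval of those marks after butyrate.

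The longest intervals with a named gene were at RARA, FHL2, LMNA and RUNX1. RARA, the retinoic acid receptor alpha, had 7474 bp of H3K4me3 (chr19:41208740-41216214) with a signal of 109 after butyrate and 108 in control. FHL2, a LIM-domain protein, had 82.3 and 93.4 over 7312 bp, LMNA, of the nuclear lamina, 102 and 122, and RUNX1, a transcription factor, 109 and 127. H3K27ac overlapped all 4 in both libraries, at RARA with 32.1 after butyrate and 68.5 in control and at RUNX1 with 52.6 and 90.5.

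**Figure D1:**
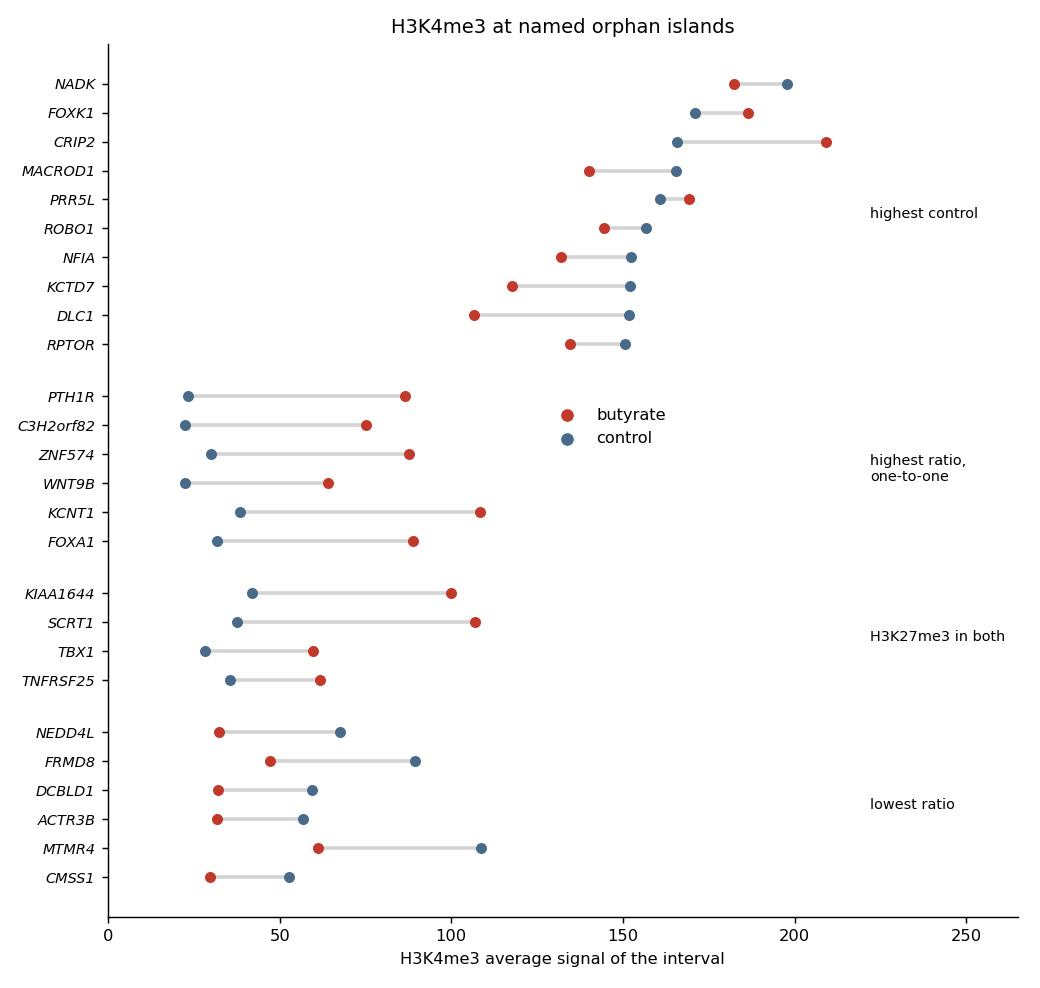
Average H3K4me3 signal (x axis) of named orphan-island intervals in the butyrate library (red) and the control library (blue), with 1 library each and no error bars. The 10 intervals of highest control signal with a named gene lay at or above 107 in both libraries, while the 6 matched singly with the highest ratios lay between 64 and 108 after butyrate and between 22.4 and 38.3 in control.

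The highest ratios among intervals with a named gene came from short control pieces. ZXDC, a zinc finger gene, had a log2 ratio of 3.07 at a control piece of 177 bp with a signal of 20.2, which lay in a butyrate interval of 2895 bp with a signal of 170. That butyrate interval also covered a control interval of 2553 bp with a signal of 149, and the ratio of the joined region was 0.27. TBC1D30 (2.50 at the piece, 0.80 for the region), SSNA1 (2.46 and 0.68), C21H14orf79 (2.36 and 0.19), IRX3 (2.36 and 0.10) and ABTB1 (2.36 and 0.44) were alike in this. None of the 6 was 2-fold higher as a region.

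Among orphan-island intervals with a named gene matched singly, chosen after their values were seen, the highest ratios were those of PTH1R, C3H2orf82, ZNF574, WNT9B, KCNT1 and FOXA1. PTH1R, the parathyroid hormone receptor, had 86.5 after butyrate and 23.3 in control, a log2 ratio of 1.89. KCNT1, a sodium-activated potassium channel, had 108 and 38.3, and WNT9B, a Wnt ligand, had 64.0 and 22.5. FOXA1, a forkhead pioneer factor, had 88.8 after butyrate and 31.7 in control at an interval downstream of the gene. H3K27me3 in control overlapped 5 of these 6, against 39.4% of all orphan-island intervals and 55.3% of those in the lowest stratum of control signal. FOXA1 was the exception. There H3K27ac was present in control (62.5) and had no interval after butyrate.

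The lowest ratios among intervals with a named gene were smaller in size. NEDD4L, a ubiquitin ligase of sodium channels (chr24:57891000-57891845), had 32.4 after butyrate and 67.6 in control, a log2 ratio of −1.06, and was the single interval at least 2-fold lower. FRMD8 (−0.92), DCBLD1 (−0.89), ACTR3B (−0.84), MTMR4 (−0.83) and CMSS1 (−0.83) followed. As joined regions, FRMD8 was at −0.66 and MTMR4 at −0.29.

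The 78 orphan-island intervals with H3K4me3 in control only were short and weak, with a median length of 240 bp and a median signal of 25.5. The highest with a named gene were at ZFPM1, a cofactor of GATA factors (47.3), APBB2 (40.9), CBX7, a chromodomain protein of Polycomb complex 1 (40.6), EEF1A2, an elongation factor (40.4), PAX5, the B-lineage factor (38.6), and ABR (38.6). At ZFPM1, EEF1A2 and PAX5 the control interval also overlapped H3K27me3.

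Beside H3K4me3, the orphan-island intervals carried less H3K27ac and more H3K27me3 than island promoters in both groups. H3K27ac overlapped 26.9% of them after butyrate and 45.5% in control, against 46.4% and 68.4% of the island promoters and a background over all control H3K4me3 intervals of 35.9% and 54.4%. H3K27me3 overlapped 29.4% after butyrate and 39.4% in control, against 18.5% and 26.9% of the island promoters and a background of 15.6% and 22.8%. The exact 95% intervals of these shares of orphan-island intervals, for counting error only, did not reach the values of the island promoters. They treat the orphan-island intervals as independent, which these are not, so they give no test between the classes. The 3812 orphan-island intervals lay in 3060 sites, and 1129 H3K27me3 intervals in control overlapped 1502 of them.

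H3K4me1 overlapped 23.8% of the orphan-island intervals after butyrate and 39.6% in control, against 14.7% and 38.1% of the island promoters and a background of 16.6% and 38%. CTCF overlapped 29.6% after butyrate and 24.5% in control, against 32.03% and 29.0% of the island promoters and a background of 24.4% and 22.3%. CTCF was the only 1 of the 4 targets with more overlaps after butyrate. By position, the CTCF share was 37.7% after butyrate and 32.2% in control for the 512 orphan-island intervals downstream of a gene and 39.3% and 36.1% for the 61 between genes.

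**Figure D2:**
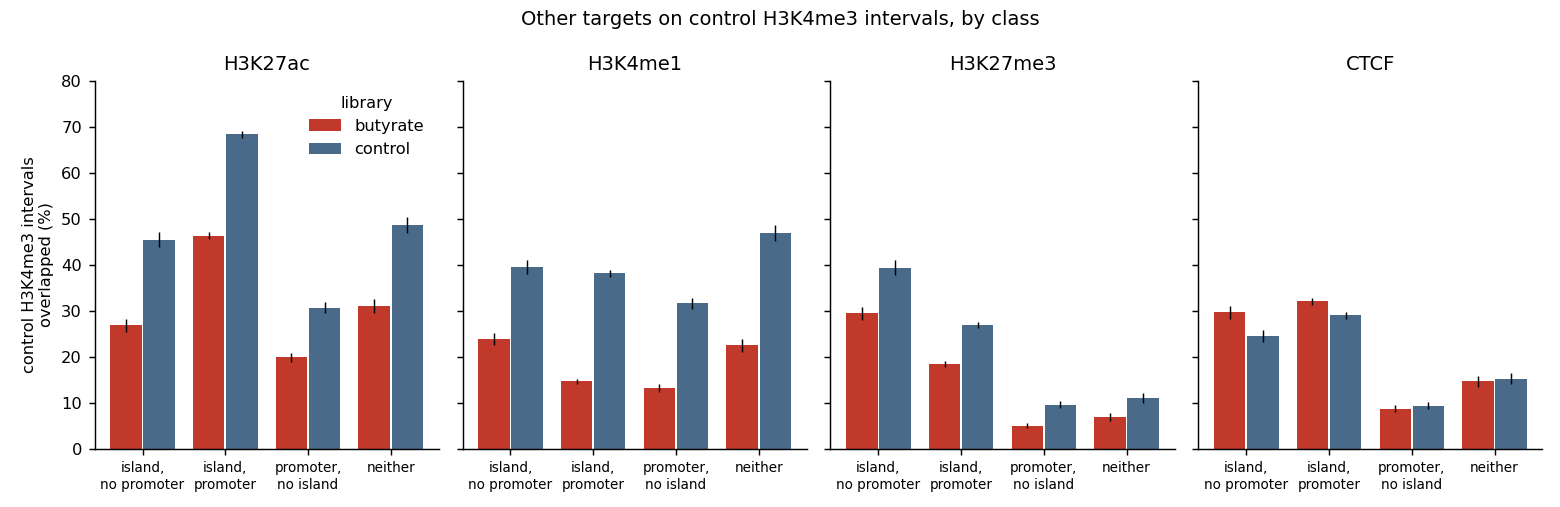
Share of control H3K4me3 intervals (y axis, percent) overlapped by an interval of each other target in the butyrate library (red) and the control library (blue), for the 4 classes by CpG island and promoter. Error bars are exact 95% binomial intervals (counting error only). For the 3812 intervals with an island and no promoter, H3K27ac covered 26.9% after butyrate and 45.5% in control, and H3K27me3 covered 29.4% and 39.4%, above the other 3 classes for H3K27me3.

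Part of this went with signal. Among intervals of the lowest stratum of control H3K4me3 signal, H3K27me3 overlapped 55.3% of orphan-island intervals and 68.0% of island promoters in control, so the order was reversed there, and it was also reversed in the second stratum (53.9% and 58.8%). In the highest stratum the shares were 14.4% and 9.62%. H3K27ac in control overlapped 20.04% of orphan-island intervals and 11.6% of island promoters in the lowest stratum, and 85.7% and 93.8% in the highest. The lower H3K27ac and higher H3K27me3 of orphan islands thus held within the 2 upper strata of signal and not in the 2 lower strata, where H3K27ac overlapped 26.7% and 23.0% in the second.

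In control, the 2 marks of lysine 27 divided the orphan-island intervals: 1588 (41.7%) had H3K27ac only, 1357 (35.6%) H3K27me3 only, 145 (3.80%) both and 722 (18.9%) neither. Those with H3K27ac only were long, with a median of 1326 bp and a control H3K4me3 signal of 72.5. Those with H3K27me3 only had a median of 504 bp and a signal of 35.5. None of the 4 other targets overlapped 955 of the orphan-island intervals after butyrate and 433 in control, and all 4 overlapped 30 in control.

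The H3K4me3 ratio differed by the mark. Orphan-island intervals with H3K27me3 only had a median log2 ratio of 0.66, with 1245 of 1343 above 0 and 344 (25.6%) at least 2-fold higher, against 13.5% of all shared intervals. Those with H3K27ac only had 0.05, with 53 of 1565 (3.39%) at least 2-fold higher, those with both had 0.21 and those with neither 0.25. When the ratios were centred on the median of all shared control intervals, the value of those with H3K27ac only became −0.059. Matched singly, the medians were 0.50 for H3K27me3 only and 0.03 for H3K27ac only, and 97 of 775 (12.5%) and 10 of 1123 (0.89%) were at least 2-fold higher, against 2.69% of all single matches. Island promoters had a median of 0.69 with H3K27me3 only, with 29.3% at least 2-fold higher, and of −0.08 with H3K27ac only.

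Within each stratum of control H3K4me3 signal, the ratio was higher with H3K27me3 only than with H3K27ac only. From the lowest to the highest stratum of control signal, the median log2 ratio was 0.96, 0.67, 0.35 and 0.24 with H3K27me3 only. With H3K27ac only it was 0.60, 0.19, 0.08 and −0.06. The order of the other groups was not kept. In the lowest stratum the median was 0.80 with both marks and 0.53 with neither, below the 0.60 with H3K27ac only. Control signal was also not equal within strata, and its median was lower with H3K27me3 only in each. It was 25.27 with H3K27me3 only and 25.38 with H3K27ac only in the lowest stratum, and 87.65 and 95.86 in the highest. Since control signal is the denominator of the ratio, the strata do not fully remove its part in the difference.

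**Figure D3:**
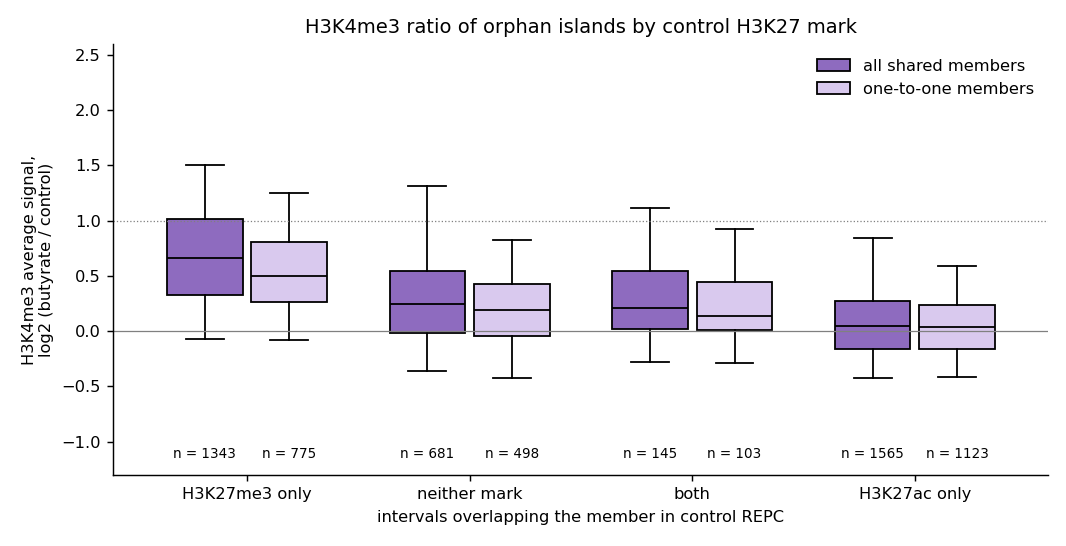
Log2 ratio of H3K4me3 average signal, butyrate over control (y axis), for shared orphan-island intervals grouped by the H3K27 marks that overlapped them in control. Dark boxes show all shared intervals and light boxes those matched singly, with the median as a line, the quartiles as the box and the 5th and 95th percentiles as whiskers. The median was 0.66 with H3K27me3 only and 0.05 with H3K27ac only.

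Of the 1502 orphan-island intervals with H3K27me3 in control, 1101 had it in both libraries and 401 (26.7%) had it in control only, against a background of 32.9%. H3K27me3 was in butyrate only at 21 of the 2310 without it in control (0.909%), against a background of 0.328%. Where it was in both, the median H3K27me3 signal was 10.2 after butyrate and 15.9 in control, the median log2 ratio was −0.64 and 262 were at least 2-fold lower (23.8%, against a background of 25%). H3K27me3 intervals are broad: the 1129 that overlapped these orphan-island intervals in control had a median length of 11799 bp, a single one held up to 7 of them, and its average is that of the whole stretch. The direction rested on the scaling. When centred on the 10% of shared H3K27me3 intervals with the highest signal, the median became 0.085.

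The H3K4me3 ratio was higher where H3K27me3 was present in both libraries than where it was in control only. Those 1101 had a median H3K4me3 log2 ratio of 0.70 with 312 at least 2-fold higher (28.6%), and the 401 with H3K27me3 in control only had 0.38 with 42 (10.6%), against 13.5% of all shared intervals. Matched singly, 86 of 605 (14.2%) and 17 of 273 (6.23%) were at least 2-fold higher, against 2.69% of all single matches. The 401 were also weaker in H3K27me3, with a median of 9.26 in control against 15.9 for the 1101. H3K27ac after butyrate overlapped 17 of the 1101 (1.54%) and 40 of the 401 (9.98%), against 26.9% of all orphan-island intervals.

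Among orphan-island intervals with a named gene and H3K27me3 in both libraries, KIAA1644, SCRT1, TBX1 and TNFRSF25 had the highest control H3K27me3. KIAA1644 (chr5:115728204-115728883) had an H3K27me3 signal of 33.2 after butyrate and 97.9 in control, and an H3K4me3 signal of 99.8 and 41.8. SCRT1, a neuronal zinc finger repressor (chr14:1787637-1787916), had H3K27me3 of 42.0 and 95.4 and H3K4me3 of 107 and 37.7. TBX1, a T-box factor of pharyngeal development (chr17:74834936-74835546), had H3K27me3 of 26.9 and 89.6 and H3K4me3 of 59.9 and 28.3. At these 3 the butyrate library was lower in H3K27me3 and at least 2-fold higher in H3K4me3. TNFRSF25, described below, was also lower in H3K27me3, but its H3K4me3 log2 ratio was 0.80, short of 2-fold. The SCRT1 interval was a piece of a joined region with 3 control intervals, whose H3K4me3 log2 ratio was 1.01. Centred on all shared control H3K4me3 intervals, the H3K4me3 log2 ratio at TBX1 was 0.977, also short of 2-fold. These loci were ranked on control H3K27me3, a choice that by itself favors lower H3K27me3 after butyrate. Centred on the 10% of shared H3K27me3 intervals with the highest signal, the H3K27me3 log2 ratios at KIAA1644, SCRT1 and TBX1 were −0.83, −0.46 and −1.01.

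TNFRSF25, a death-domain receptor gene, had both calls, H3K27me3 in both libraries and in control only, within one stretch. A control H3K27me3 interval of 15999 bp with a signal of 68.9 covered its 2 orphan-island intervals. After butyrate the H3K27me3 interval was 13799 bp long with a signal of 22.8 and did not overlap the first of them (chr16:47759294-47760580), whose H3K4me3 was 94.0 after butyrate and 61.4 in control. This first interval ended 0.643 kb to the right of its centre and the butyrate H3K27me3 interval began at 0.663 kb. The call of no overlap thus rested on a narrow gap at the edge of a broad interval. The second (chr16:47760683-47761504) stayed inside it, with H3K4me3 of 61.8 and 35.5. A butyrate H3K4me3 interval with no control counterpart, 1704 bp long and with a signal of 78.9, lay farther into the same stretch. CTCF at the second was 96.2 after butyrate and 51.5 in control.

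Among intervals with a named gene, H3K27me3 in control only was highest, after TNFRSF25, at FGFR3, a fibroblast growth factor receptor (44.2), LRRC8E, a subunit of volume-regulated anion channels (39.6), and BAIAP3 (37.9). H3K4me3 at FGFR3 was 58.0 after butyrate and 55.7 in control, and at LRRC8E 115 and 110. BAIAP3 had 64.6 and 45.3, a log2 ratio of 0.51.

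**Figure D4:**
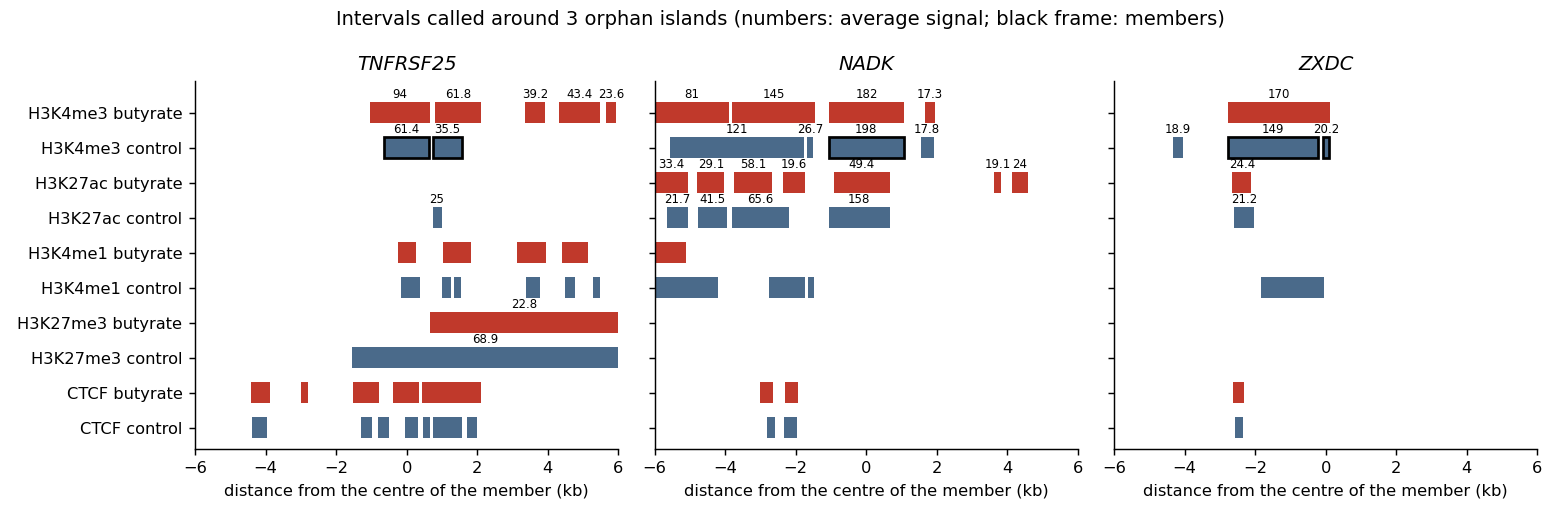
Intervals called in the 10 libraries within 6 kb of an orphan-island interval at TNFRSF25, NADK and ZXDC, by distance from its centre in kb (x axis), with butyrate in red and control in blue. Black frames mark orphan-island intervals and the numbers are average signals. At TNFRSF25 the H3K27me3 interval starts farther right after butyrate with 22.8 in place of 68.9 in control, at NADK H3K27ac is 49.4 after butyrate and 158 in control, and at ZXDC a control piece of 177 bp lies inside a wide butyrate interval.

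Of the 1733 orphan-island intervals with H3K27ac in control, 968 had it in both libraries. Another 765 (44.1%) had it in control only, against a background of 39.2% and 33.5% at island promoters. H3K27ac was in butyrate only at 57 of the 2079 without it in control (2.74%), against a background of 6.22% and 2.75% at island promoters. Where it was in both, the median H3K27ac signal was 28.0 after butyrate and 45.3 in control, and the median log2 ratio was −0.61, with 272 (28.1%) at least 2-fold lower, against a background of 31.7%. This direction, too, rested on the scaling, since centring on the 10% of shared H3K27ac intervals with the highest signal gave 0.37. The H3K4me3 ratio was alike in both sets: the median H3K4me3 log2 ratio was 0.06 where H3K27ac was in both and 0.05 where it was in control only. H3K4me3 overlapped 97.9% of the 765 after butyrate.

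EPC1, of a histone acetyltransferase complex, had the highest control H3K27ac of intervals with a named gene and the mark in both libraries, 117 after butyrate and 175 in control, with H3K4me3 of 149 and 146. NADK had H3K27ac of 49.4 after butyrate and 158 in control, KCTD7 50.9 and 155, and MORN1 28.2 and 141. In the deposited signal all 4 were lower after butyrate, and the last 3 by more than 2-fold. These 4 were ranked on control H3K27ac, a choice that by itself favors lower values after butyrate. Centred on the 10% of shared H3K27ac intervals with the highest signal, the log2 ratio was 0.41 at EPC1, −0.69 at NADK, −0.62 at KCTD7 and −1.33 at MORN1, so EPC1 turned and MORN1 alone passed 2-fold. Among intervals with a named gene, the highest H3K27ac in control only was at MNT, a partner of MAX (100), ZNF350 (91.0), MXRA7 (81.4) and AZIN1, an antizyme inhibitor (77.4). H3K4me3 at MXRA7 was 65.8 after butyrate and 83.6 in control, and at ZNF350 58.0 and 103.

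**Figure D5:**
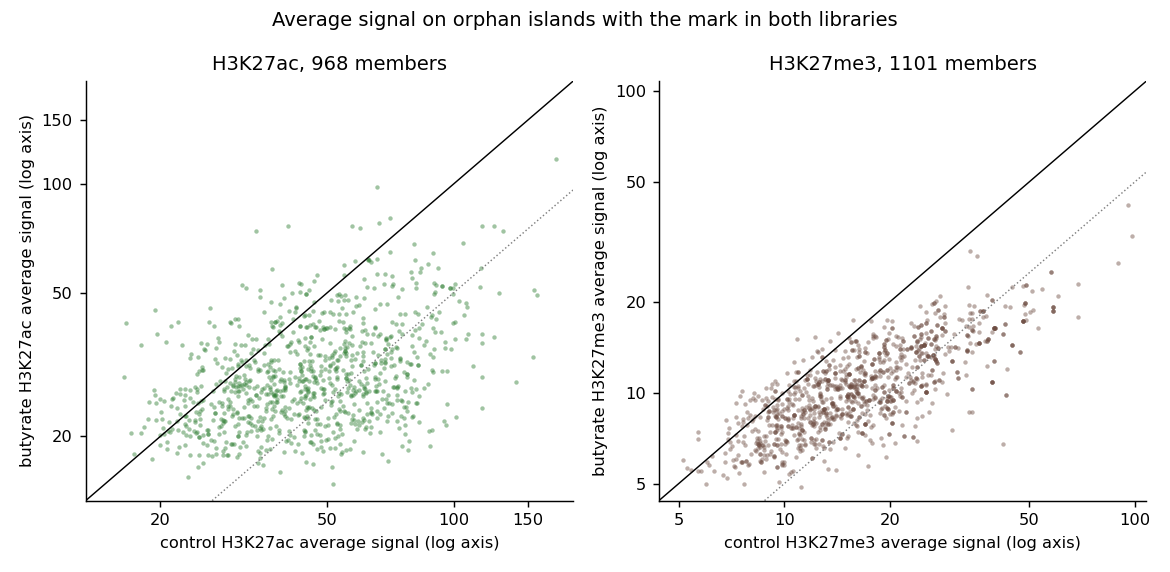
Average signal of H3K27ac (left, 968 orphan-island intervals) and H3K27me3 (right, 1101) after butyrate (y axis, log scale) against control (x axis, log scale). The solid line marks equal signal and the dotted line a 2-fold lower signal after butyrate, below which lay 272 and 262 intervals.

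H3K4me1 was in control only at 765 of 1508 orphan-island intervals (50.7%), against a background of 62.2%, and the 743 with it in both had a median log2 ratio of −0.13. It was in butyrate only at 165 of the 2304 without it in control (7.16%), against a background of 3.63% and 2.95% at island promoters. CTCF was in control only at 75 of 935 (8.02%), against a background of 13.6%, and in butyrate only at 270 of 2877 (9.38%), against a background of 6.57% and 9.87% at island promoters. The 860 with CTCF in both had a median log2 ratio of 0.13. Among intervals with a named gene and CTCF in both libraries, the highest control CTCF signals were at C11H2orf42, with 119 after butyrate and 133 in control, RRP1 with 102 and 115, TCF3 with 125 and 113, and XXYLT1 with 87.4 and 112.

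The values varied with the distance from a listed start. Where the nearest listed start lay over 50 kb away (497 intervals), H3K27me3 overlapped 21.9% after butyrate and 30.0% in control and the median H3K4me3 log2 ratio was 0.21. At 5 to 50 kb (1647 intervals) the values were 30.6%, 41.6% and 0.27. With no listed gene (1324 intervals) they were 31.6%, 40.9% and 0.25. Within 5 kb (344 intervals) H3K27me3 overlapped 26.5% and 36.9%, and the ratio was higher, at 0.45. At least 2-fold higher there were 21.0%, against 13.5% of all shared intervals. These 344 were also weaker in control H3K4me3, with a median of 38.9 against 46.6 to 50.4 in the other distance groups. They were shorter too, with a median of 608 bp against 756.5 to 825 bp. The part of signal and length in the higher ratio was not tested.

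H3K27me3 overlapped larger shares of the orphan-island intervals at homeobox genes than of all orphan-island intervals. The 60 orphan-island intervals that listed a homeobox or paired-box factor outside the HOX clusters had H3K27me3 in 43 (71.7%) after butyrate and 49 (81.7%) in control, against 29.4% and 39.4% of all orphan-island intervals. Their median H3K4me3 log2 ratio was 0.59 and 18 of 59 shared (30.5%) were at least 2-fold higher, against 13.5% of all shared intervals. Matched singly, 2 of 32 (6.25%) were, against 2.69% of all single matches. The 49 at other developmental transcription factors had H3K27me3 in 31 (butyrate) and 32 (control), and their median ratio was 0.57, and the 60 at neuronal and synaptic genes had it in 33 and 38, with a ratio of 0.71. For the 35 of the Wnt, BMP and FGF pathways it was 16 and 23, with a ratio of 0.51, and for the 27 at axon guidance genes 7 and 16, with a ratio of 0.29. No interval of these lists was at least 2-fold lower, but only 1 of all 3734 shared orphan-island intervals was, and 0.108% of all shared intervals. Since one H3K27me3 interval can hold several of them, the counts are not of independent sites.

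The homeobox loci differed among themselves. SIX3, a forebrain factor, had 4 orphan-island intervals under 1 H3K27me3 interval of 13.0 after butyrate and 26.97 in control, and their H3K4me3 log2 ratios lay between 0.29 and 1.25. MEIS1, a HOX cofactor, had no H3K27me3 at its interval of highest signal, with H3K4me3 of 116 after butyrate and 82.6 in control. POU2F1, a widely expressed octamer-binding factor, had 114 and 134, with H3K27ac of 41.1 and 39.1. LHX9 had 50.1 and 73.1, with H3K27ac of 39.7 in control and no interval of it after butyrate. The named intervals of highest control signal of this list, at POU2F1, MEIS1 and LHX9, thus all lacked H3K27me3, while 81.7% of the list had it in control.

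HOX genes had 5 orphan-island intervals. A pair downstream of HOXC12 (chr5:26229696-26230022 and chr5:26230209-26230777) lay in 1 butyrate interval with a signal of 90.7, against 28.7 and 30.6 in control, and the joined region had a log2 ratio of 1.60. H3K27me3 there was 16.9 after butyrate and 42.5 in control. At HOXC4 an interval of 3740 bp without H3K27me3 had H3K4me3 of 86.8 and 81.5 and H3K27ac of 78.1 and 66.2. A second at HOXC4 had a log2 ratio of 1.36 as a piece and −0.057 as a region.

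Other named factors included TFAP2C, an AP-2 factor, with H3K4me3 of 156 after butyrate and 129 in control over H3K27me3 of 15.4 and 20.8, and SOX13, with 137 and 100 at its stronger interval. Among signaling genes, WNT7A had 121 and 88.3, BMP4 108 and 87.7, TCF7L2, the nuclear effector of Wnt signaling, 113 and 106, and AXIN1, of the beta-catenin destruction complex, 73.9 and 97.6. H3K27me3 covered BMP4 with 10.3 after butyrate and 34.3 in control. Of the axon guidance genes, NRP2, a semaphorin receptor, had 143 and 115 and SEMA3F 109 and 125. Synaptic genes of high signal, DLGAP4, SYNPO, VAMP2 and DPP6, had H3K27ac in control and no H3K27me3, and their H3K4me3 log2 ratios lay between −0.67 and −0.06.

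Of the island intervals at stratified epithelium and imprinted genes, 11.9% and 10.2% were orphan-island intervals, against 17.5 to 29.2% by chromosome. The stratified epithelium list gave 8 at 6 of 59 genes. Of these 8, 5 (62.5%) had H3K27ac in each library, against 26.9% after butyrate and 45.5% in control of all orphan-island intervals. KLF5, a factor of basal epithelium, had 2, with H3K4me3 of 80.1 and 55.5 after butyrate and 87.8 and 71.4 in control. EPHA2, an ephrin receptor, had 129 and 53.5 at its interval, and 0.44 as the log2 ratio of the region. GNAS, an imprinted gene with several alternative first exons, had an interval with H3K4me3 of 70.9 and 69.3 and H3K27me3 of 8.91 and 18.9. The protocadherin clusters gave 4, or 11.4% of their island intervals. All 4 had H3K27me3 in control, against 39.4% of all orphan-island intervals. The housekeeping list gave 0.

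Names of genes with higher or lower mRNA after butyrate were taken from the study's lists. Genes with higher mRNA were listed by 184 orphan-island intervals. Of these, 99 (53.8%) had H3K27me3 after butyrate and 136 (73.9%) in control, against 29.4% and 39.4% of all orphan-island intervals. H3K27ac overlapped 13 of these 184 (7.07%) after butyrate and 25 (13.6%) in control, against 26.9% and 45.5%. Their median H3K4me3 log2 ratio was 0.56 and 34 of 179 (18.99%) were at least 2-fold higher, against 13.5% of all shared intervals. Matched singly, 5 of 101 (4.95%) were, against 2.69%. Genes with lower mRNA were listed by 24. Of these, 7 (29.2%) had H3K27me3 in butyrate cells and 8 (33.3%) in control cells, against 29.4% and 39.4%. Their median H3K4me3 log2 ratio was 0.21, with 3 (12.5%) at least 2-fold higher, against 13.5% of all shared intervals. Over the 7 matched singly the median was −0.021, with 0 at least 2-fold higher. H3K27ac overlapped 5 of the 24 (20.8%) after butyrate and 13 (54.2%) in control, against 26.9% and 45.5% of all orphan-island intervals. Among these 24, ANLN, a cytokinesis scaffold, had H3K4me3 of 119 after butyrate and 136 in control, KIF23, a midzone kinesin, 161 and 121, and DSN1, of the kinetochore, 121 and 122.

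Butyrate also gave 1926 H3K4me3 intervals that met the same rule and had no control interval, among 9943 new intervals in all. They were short, with a median of 397 bp, and weak, with a median signal of 31.4. H3K27me3 overlapped 1371 of them (71.2%) after butyrate and 1492 (77.5%) in control, against 42.6% and 48.8% of all new intervals and 81.7% and 87.1% of the 2143 new island intervals with a promoter. H3K27ac overlapped 169 (8.77%) and 161 (8.36%). New orphan-island intervals thus lay mostly in stretches with H3K27me3 in control, where 39.4% of the control orphan-island intervals lay.

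The new orphan-island intervals of highest signal with a named gene were at MPPED1 (102), SH2D3C, an adaptor protein (87.9), R3HDML (81.6), NPBWR2, a neuropeptide receptor (79.3), NOTUM, the carboxylesterase that inactivates Wnt (79.3), and TNFRSF25. H3K27me3 at MPPED1 was 7.81 after butyrate and 33.5 in control, at SH2D3C 13.2 and 24.3, at NOTUM 13.2 and 35.6 and at NPBWR2 18.4 and 14.1. R3HDML had no H3K27me3 interval in either library. Of the 6, NPBWR2 alone had the higher H3K27me3 value after butyrate.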

How the data were processed

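ChIP-seq intervals of REPC were taken from 1 deposited table with 371758 intervals of 10 ChIP libraries. Per the labels, the reads were trimmed with Trim Galore 0.4.1, aligned with BWA and called with MACS2 on UMD3.1. The deposited signal is a tag density, at the summit (peak signal) or as the mean of the interval (average signal), and how the authors scaled it between libraries is not given in the sources used here. Depth per library is not in the table and was not used, so no precision from depth is given. Deposited positions, lengths and counts of islands, promoters and genes were used as given, and the base from which their coordinates count is not given in the sources used here.

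Groups came from the sample labels. Intervals overlapping by at least 1 bp were shared. The log2 ratio set the average signal of a control H3K4me3 interval against the overlap-weighted average of the butyrate intervals on it, with no pseudocount. Other targets were treated likewise. Gene starts were derived from summits and listed distances (at least 2 listings, 90% in agreement). With 1 library per group no test was run. Shares carry exact (Clopper-Pearson) 95% intervals, which cover counting error only. The members and gene lists were chosen with earlier results of these data known. Loci are called by the listed gene with the nearest start, or by the list gene. Named were the 10 orphan-island intervals of highest control signal, the 6 highest and 6 lowest ratios among those whose larger signal reached the median, the 6 highest in control only, the 4 longest, the 4 highest per H3K27me3, H3K27ac and CTCF group, the 6 highest new intervals, 2 on each side of the rule and up to 4 per list. Intervals with no listed gene, provisional loci and microRNAs were left out of these rankings, which went by control signal for each H3K27me3, H3K27ac and CTCF group. BCOR, SIX3, the interval without a gene and those of highest ratio matched singly were chosen after their values were seen. Alternatives were another overlap, stricter calls, equal numbers of intervals, other fold thresholds, peak signal, a pseudocount of 1, centring, and intervals far from starts. Joined regions, single matches and isolated intervals were added after seeing the data. Python 3.11.15 with numpy 2.4.6, pandas 2.3.3, scipy 1.17.1 and matplotlib 3.10.9 was used, and the code was tested on simulated data. The input library was not analysed here.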

Additional observations from a re-analysis of the deposited data

How the results depend on the processing

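No paired analysis was possible because each group had 1 library. The share of orphan-island intervals overlapped by a butyrate H3K4me3 interval was 95.9% with equal numbers of intervals and 97.7 to 98.2% under the other alternatives. The number at least 2-fold higher in H3K4me3 was 878 with peak signal and 122 over single matches, and 1088 and 93 passed a fold of 1.5 and of 3. The number at least 2-fold lower was 6 with peak signal, 4 after centring on all shared control intervals and 2 with a 50% overlap, and 47 and 0 passed a fold of 1.5 and of 3. The median H3K4me3 log2 ratio was 0.38 with peak signal, 0.16 after centring on all shared control intervals, 0.29 after centring on the top 10%, 0.25 over joined regions and 0.20 over single matches. With H3K27me3 only it was 0.92 (peak), 0.55 (centred on all), 0.63 (regions) and 0.50 (single matches). With H3K27ac only it was 0.10 (peak), −0.059 (centred on all) and 0.072 (top 10%). The median H3K27ac ratio was −1.02 with peak signal, −0.30 centred on all and 0.37 on the top 10%, and the median H3K27me3 ratio was −1.17, −0.57 and 0.085. With stricter calls, H3K27ac overlapped 24.6% after butyrate and 42.5% in control, H3K4me1 19.7% and 34.9%, and CTCF 24.4% and 20.2%. A 50% overlap gave 21.5% and 37.3% for H3K4me1, 27.9% for H3K27me3 after butyrate and 22.4% for CTCF in control. Limiting the set to intervals at least 5 kb from a start moved no share beyond its interval, and the number of new intervals stayed between 1621 and 1940. Of 21 named loci past 2-fold, those at BCOR and PAX5 not counted, 13 were past it as joined regions and HOXC4 was at −0.057. H3K27ac at EPC1 was at 0.41 centred on the top 10%. For each value that moved, the cause was not tested. Signal was given for called intervals only, so a mark below the calling threshold and an absent mark cannot be told apart, and without replicates the spread between cultures is unknown.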
